A study of Homo sapiens with 4 samples.

Results

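Pairs of regions linked in H3K27ac HiChIP and lying more than 2 Mb apart on the same chromosome were described in 4 colorectal cancer cell lines. They were taken from the deposited tables of contacts within chromosomes as every pair of different regions (anchors) whose midpoints were over 2000000 bp apart. This gave 61736 pairs in the 4 libraries, out of 475235 deposited pairs within and between chromosomes, self pairs included. HCT116 held 11031 far pairs, LS513 31548, SW480 1267 and SW620 17890. The lines are untreated established cultures obtained from ATCC, and each was measured by a single HiChIP library. No condition was varied, and with 1 library per line a difference between lines cannot be told apart from one between libraries. SW480 and SW620 are known to come from a primary tumour and a later metastasis of the same patient. All coordinates are hg19.

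HiChIP joins the ends of DNA that lie close together in the crosslinked nucleus and then enriches for fragments carrying a chosen protein or mark, here acetylated lysine 27 of histone H3, a mark of active promoters and enhancers. Each sequenced ligation product is a paired-end tag (PET) that links 2 anchors. Contact falls with distance along a chromosome, and distant loci still meet more often within a chromosome territory than between territories. In cancer genomes, pairs that are far apart in the reference can also lie next to each other after a rearrangement. Many human chromosomes hold long stretches of near-identical duplicated sequence, and a short read from such a stretch can be placed at either copy.

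The far pairs with the most PETs were examined first for sequence present at both ends. No hg19 sequence was used here, so no anchor was assigned to a gene. In its place, RefSeq promoter sequences (GRCh38.p14) were searched for copies over 2 Mb apart on the same chromosome, and only the separation of each couple was compared with that of the far pairs. Of the 35116 promoters in the table, 677 couples shared at least 20 words of 16 bases. These words were counted with overlaps, so a longer shared stretch can supply many of them. TYW1, an enzyme of wybutosine synthesis in phenylalanine transfer RNA, and its copy TYW1B on chromosome 7 are shown because the separation of their promoters differed by 8.88 kb from that of the SW620 pair with 100 PETs. SMURF2, a ubiquitin ligase of the TGF-beta pathway, and the noncoding RNA LINC00674 on chromosome 17 are shown because theirs differed by 0.236 kb from that of the HCT116 pair with 22 PETs. The 250 bases before each start are printed 5′ to 3′ on the gene's strand, with capitals where a run of at least 16 bases occurs in both members of a couple.
TYW1: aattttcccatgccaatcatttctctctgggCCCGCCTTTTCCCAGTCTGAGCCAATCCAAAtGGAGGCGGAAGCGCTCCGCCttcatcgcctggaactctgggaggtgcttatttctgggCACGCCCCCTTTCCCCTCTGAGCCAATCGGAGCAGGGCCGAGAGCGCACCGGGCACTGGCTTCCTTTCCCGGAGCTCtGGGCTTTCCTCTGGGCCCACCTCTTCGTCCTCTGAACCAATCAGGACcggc
TYW1B: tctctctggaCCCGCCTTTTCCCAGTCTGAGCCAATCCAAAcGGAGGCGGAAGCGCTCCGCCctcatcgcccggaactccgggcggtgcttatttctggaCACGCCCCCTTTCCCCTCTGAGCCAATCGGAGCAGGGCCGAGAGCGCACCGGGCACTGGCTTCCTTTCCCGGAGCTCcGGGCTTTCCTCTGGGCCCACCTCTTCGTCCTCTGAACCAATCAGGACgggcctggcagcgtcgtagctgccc
SMURF2: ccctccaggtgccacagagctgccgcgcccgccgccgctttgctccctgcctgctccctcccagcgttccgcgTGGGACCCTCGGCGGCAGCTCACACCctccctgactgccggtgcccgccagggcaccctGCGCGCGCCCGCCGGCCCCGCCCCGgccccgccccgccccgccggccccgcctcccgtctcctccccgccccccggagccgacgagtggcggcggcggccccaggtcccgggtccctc
LINC00674: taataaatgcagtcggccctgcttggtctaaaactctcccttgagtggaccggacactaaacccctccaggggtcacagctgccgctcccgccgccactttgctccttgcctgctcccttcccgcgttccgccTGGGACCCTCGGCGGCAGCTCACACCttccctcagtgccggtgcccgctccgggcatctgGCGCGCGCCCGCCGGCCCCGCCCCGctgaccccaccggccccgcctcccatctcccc
TYW1 and TYW1B shared 175 of these 250 bases in such runs, the longest of 77 bases. SMURF2 and LINC00674 shared 51 bases, with a longest run of 26.

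A match in separation is a weak criterion by itself. Within 10 kb, a promoter couple with the same separation existed for 2 of the 20 far pairs with 10 or more PETs (10.0%, exact 95% interval 1.24 to 31.7%). For far pairs with a single PET on chromosomes 1, 7, 16 and 17 the share was 2.24% (interval 2.04 to 2.45%, 441 of 19717). The intervals overlapped, and the 20 are entries per library of 11 distinct loci, so their interval is too narrow. Such couples were most frequent on chromosomes 15 (222 couples) and 9 (90), which held no far pair of 10 or more PETs. Whether anchors lay at these couples was not checked, so that absence decides nothing. On chromosome 9, HCT116 and LS513 had no anchor between 38689244 and 71250696 bp. The separations come from 2 builds and can differ for that reason. The table holds promoters only, and copies elsewhere in the genome were not searched.

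Far contacts made up 8.99 to 12.8% of the PETs between different anchors of a chromosome in the 4 lines. The share was 12.1% in HCT116 (exact 95% interval 11.9 to 12.3%, 11308 of 93419 PETs) and 12.8% in LS513 (12.7 to 12.9%, 32700 of 255686). SW620 gave 10.8% (10.7 to 11.0%, 18581 of 171856) and SW480 8.99% (8.54 to 9.45%, 1378 of 15333). All intervals in this text cover counting error only, and PETs without molecular identifiers need not be independent molecules. SW480 was the shallowest library, with 149829 PETs of all kinds against 987086 to 1709233 in the others, so its far pairs carry the widest intervals. None of the far pairs was present in the authors' filtered loop tables, which end at 2 Mb.

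The limit of 2 Mb did not fall at a break in the data. In the 100 kb just inside and just outside it, LS513 held 430 PETs above and 506 below, HCT116 162 and 181, SW620 270 and 316, and SW480 15 and 22. The median far pair spanned 13.5 Mb in HCT116, 12.9 Mb in SW620, 13.03 Mb in LS513 and 15.3 Mb in SW480. The longest spanned 231 to 248 Mb. Far pairs used 49.6% of the anchors of HCT116, 70.9% of those of LS513, 21.04% in SW480 and 55.7% in SW620.

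Contact between far anchors fell steadily with distance and stayed above the level between chromosomes at every distance. From 2 to 4 Mb, HCT116 gave 4943 PETs per 1000000 possible anchor pairs, LS513 14130, SW480 2999 and SW620 6717. In the bin that starts at 64 Mb and doubles the distance, the same measure was 293 in HCT116, 376 in SW620, 759 in LS513 and 190 in SW480. The level between chromosomes was 134 in HCT116, 198 in SW620, 286 in LS513 and 96.6 in SW480. Contact was therefore 31.05 to 49.3 times the interchromosomal level at the near end, 1.90 to 2.65 times in that bin, and 1.65 to 2.25 times beyond it.

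The rate of decay was close in the 4 lines. On logarithmic axes, over the 6 doublings of distance from 2 Mb, the slope was -0.786 ± 0.0185 in HCT116 (95% counting error), -0.802 ± 0.0145 in SW620, -0.817 ± 0.0112 in LS513 and -0.765 ± 0.0531 in SW480. Only the intervals of HCT116 and LS513 failed to overlap, and with 1 library each that gap cannot be told apart from a difference between libraries. Weighting each possible pair by the strength of its anchors, the PETs they hold with themselves and in filtered loops, gave shallower slopes of -0.668 to -0.716. One step departed from the line. In SW480 the level fell only from 943 at 8 to 16 Mb to 848 at 16 to 32 Mb, and a single pair on chromosome 17 supplied 84 of the 341 PETs in the farther bin. Without pairs of 10 or more PETs that bin stood at 639 (564 to 723).

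**Figure D1:**
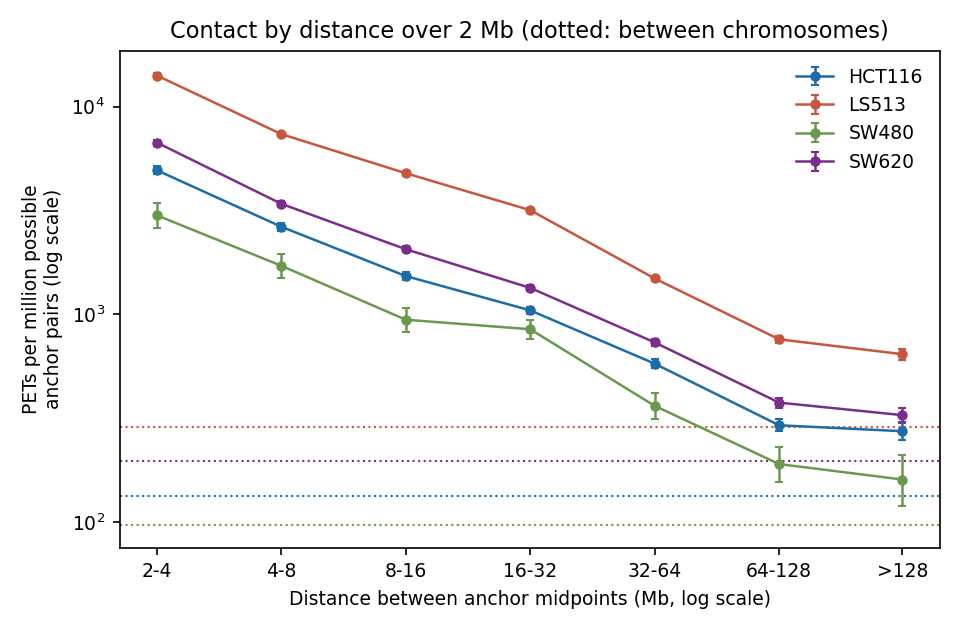
PETs per 1000000 possible anchor pairs (log axis) against distance in bins that double from 2 Mb, with a last bin for all longer distances. Bars are exact 95% counting intervals and dotted lines the level between chromosomes, which every line stays above (1.65 to 2.25 times in the last bin).

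Few far pairs were seen more than once. Pairs with 2 or more PETs numbered 144 in HCT116 (1.31% of far pairs), 301 in SW620 (1.68%), 750 in LS513 (2.38%) and 18 in SW480 (1.42%). The share among filtered loops of 5 kb to 2 Mb was 33.5 to 43.05%, and among interchromosomal pairs 0.581 to 0.655%. The counts follow the order of depth. Thinned to the 1378 far PETs of SW480, the expected share was 0.473% in HCT116, 0.331% in LS513 and 0.439% in SW620, all below the interval of SW480 (0.844 to 2.24%, 18 of 1267 pairs). Thinning did not equalise the number of anchors. SW480 had 9350 anchors and every other line at least 21941, so its PETs had fewer possible pairs to fall on. The part that this has in the higher share of SW480 was not tested. Repeated pairs were nearer than single ones in 3 lines, with medians of 5.38 against 13.7 Mb in HCT116, 6.18 against 13.3 Mb in LS513 and 4.87 against 13.1 Mb in SW620. In SW480 the 18 repeated pairs had a median of 26.7 Mb and the single ones 15.2 Mb.

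Most repeated pairs had only 2 PETs, and a small separate set had 10 or more. Exactly 2 PETs were held by 127 pairs in HCT116, 269 in SW620, 684 in LS513 and 14 in SW480. Between 3 and 9 PETs were held by 11, 27, 59 and 2 pairs in the same order, and 10 or more by 6, 5, 7 and 2 pairs. The resulting 20 strong pairs are entries counted in each library, and they stand for 11 distinct loci. Of these loci, 3 lay on chromosome 1, 2 on chromosome 7, 2 on chromosome 16 and 4 on chromosome 17. The same chromosomes held 19717 of the 60523 far pairs with 1 PET.

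The strong pairs differed from the other far pairs in how many PETs their anchors held with themselves, the local signal of an anchor. For pairs with 2 PETs, the weaker anchor held a median of 46 PETs with itself in HCT116, 42 in SW620, 77 in LS513 and 21.5 in SW480. For pairs with 10 or more, that median was 3.5 in HCT116, 7 in SW620, 1 in LS513 and 1.5 in SW480. Thus 16 of the 20 strong entries had more PETs between their ends than the weaker end had with itself. By locus, 8 of the 11 did so in every library where they reached 10 PETs, and 1 more in only some of them. Among filtered loops with 10 or more PETs the share was 8.75% (8.10 to 9.43%, 620 of 7086). Among far pairs with 1 PET it was 3.23%, but such a pair can exceed only an anchor without PETs with itself. That share is therefore low by construction and is no like comparison. Of the 20 strong entries, 10 also exceeded the stronger of their ends (6 loci), against 39 of the 7086 filtered loops. The chromosome 17 locus present in all 4 libraries supplied 4 of those 10, and entries of 1 locus are not independent. The part that duplicated sequence has in these counts was not tested.

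**Figure D2:**
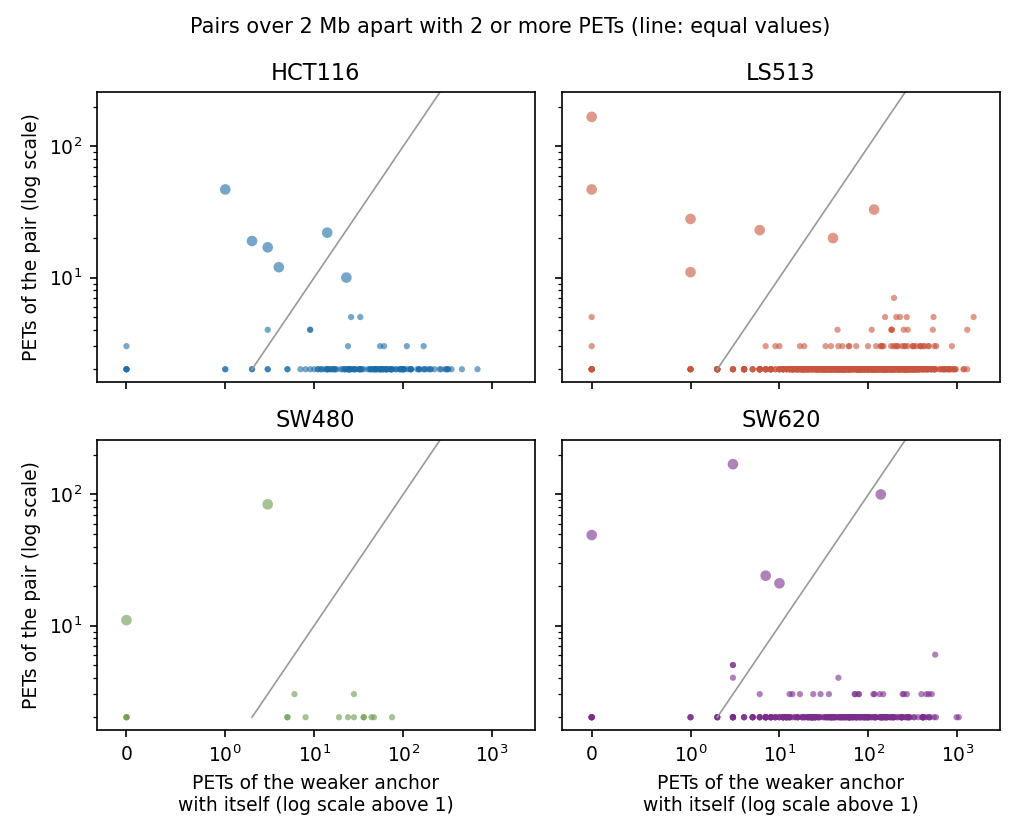
PETs of each far pair with 2 or more PETs (log axis) against the PETs its weaker anchor held with itself (log axis above 1), by line. The grey line marks equal values, larger points are pairs with 10 or more PETs, and 16 of those 20 entries, from 11 loci, lie above the line while most pairs of 2 PETs lie far to its right.

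The strongest pairs of the 4 libraries formed 13 loci when the 5 pairs with the most PETs in each were joined where they overlapped. Of these, 11 reached 10 or more PETs in a library. The other two, both named through SW480, reached 3 PETs (chr17:4868869-4875221 with chr17:7135920-7147811, 0 PETs in the other libraries, which had anchors at both ends) and 2 PETs (chr14:68630539-68632668 with chr14:99417820-99434671).

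A pair on chromosome 17, 19.2 Mb apart, was the strongest in every line. It joined chr17:43660113-43664159 with chr17:62914248-62918581. HCT116 gave 47 PETs, LS513 168, SW480 84 and SW620 170. This is, per 1000000 far PETs, 4156 (3054 to 5527), 5138 (4390 to 5976), 60960 (48620 to 75470) and 9149 (7825 to 10630). SW480 stood highest on this scale, 6.10% of its far PETs coming from this pair. The farther anchor held 1 PET with itself in HCT116, 3 in SW620, 0 in LS513 and 3 in SW480. Its anchors reached no more than 2 PETs with any anchor on another chromosome. The pair was also concentrated: it carried 88.7% of the far PETs of the surrounding square of 1 Mb by 1 Mb in HCT116, 98.8% in SW620, 82.8% in LS513 and 100% in SW480. Outside that square the farther anchor had other partners on the chromosome. It paired with chr17:30332866-30336530, 32.6 Mb away, by 5 PETs in LS513. In SW620 it paired with the overlapping chr17:30333399-30336530 by 4 PETs.

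A second pair found in every line spanned 132 Mb of chromosome 1, from chr1:17228755-17232791 to chr1:149222417-149225810. It held 10 PETs in HCT116, 21 in SW620, 20 in LS513 and 3 in SW480. The nearer and farther anchor held 35 and 23 PETs with themselves in HCT116, 30 and 10 in SW620, 45 and 40 in LS513, and 24 and 6 in SW480. The 21 PETs of the pair in SW620 thus exceeded those of its farther anchor with itself, and the other libraries did not show this. The same farther end also paired with chr1:145381717-145384194, 3.84 Mb away, by 17 PETs in HCT116, 28 in LS513 and 11 in SW480. SW620 had no anchor at chr1:145381717-145384194. The nearer anchor of that pair held 3, 1 and 0 PETs with itself in the 3 lines that had it.

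At 2 loci with PETs in HCT116 and LS513, the other lines lacked an anchor at 1 or both ends. A pair 3.04 Mb apart on chromosome 7 (chr7:29723013-29725980 with chr7:32766399-32770018) held 19 PETs in HCT116 and 23 in LS513. SW480 had an anchor at neither end and SW620 at 1 end only. A pair 2.58 Mb apart on chromosome 16 (chr16:18936707-18939709 with chr16:21512295-21514442) held 12 PETs in HCT116 and 11 in LS513, and neither SW480 nor SW620 had anchors there. Since HCT116 and LS513 have 21821 anchors with identical coordinates, of 21941 and 22154, their pairs can be compared directly and those of the other lines only where anchors overlap.

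SW620 alone had 3 loci with 10 or more PETs and no anchors at either end in another library. They were the chromosome 7 pair named above (chr7:66459246-66461122 with chr7:72299514-72301350, 5.84 Mb apart, 100 PETs), a chromosome 1 pair (chr1:6506097-6509968 with chr1:17023557-17033391, 10.5 Mb apart, 49 PETs) and a chromosome 17 pair (chr17:62960799-62963673 with chr17:66253542-66255419, 3.29 Mb apart, 24 PETs). The chromosome 7 pair had strong local signal at both ends, 184 and 138 PETs, whereas the chromosome 1 pair had 0 and 17 PETs. Absence of an anchor means that no PET could be assigned there, not that contact was absent.

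Other loci differed in size between lines that shared their anchors. On chromosome 16, chr16:29300308-29303086 and chr16:88296598-88300516, 59.0 Mb apart, held 47 PETs in LS513 and 2 in HCT116. The values per 1000000 far PETs, 1437 (1056 to 1911) against 177 (21.4 to 639), have intervals that do not overlap. The anchors held 1 and 0 PETs with themselves in LS513. On chromosome 17, chr17:62656458-62660032 and chr17:66095856-66099601, 3.44 Mb apart (the separation matched by SMURF2 and LINC00674), held 22 PETs in HCT116, 3 in LS513 and 2 in SW620. Scaled per 1000000 far PETs, the values were 1946 (1219 to 2946), 91.7 (18.9 to 268) and 108 (13.04 to 389), so HCT116 stood above both.

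A further chromosome 17 locus lay in the same square of 1 Mb by 1 Mb as the strongest pair. It joined chr17:43500323-43512048 with chr17:62774524-62779312 by 33 PETs in LS513, 2 in HCT116 and 0 in SW620. Both SW620 ends had anchors, and 0 of 18581 far PETs allows up to 161.5 per 1000000 far PETs against 1009 (695 to 1417) in LS513. These anchors had local signal, 242 and 116 PETs with themselves in LS513. Chromosome 17 thus held 5 of the 13 loci, of which 4 had an end between 62 and 63 Mb. Its share of all far PETs was 9.65% in HCT116, 9.60% in SW620, 8.82% in LS513 and 14.3% in SW480, strong pairs included.

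**Figure D3:**
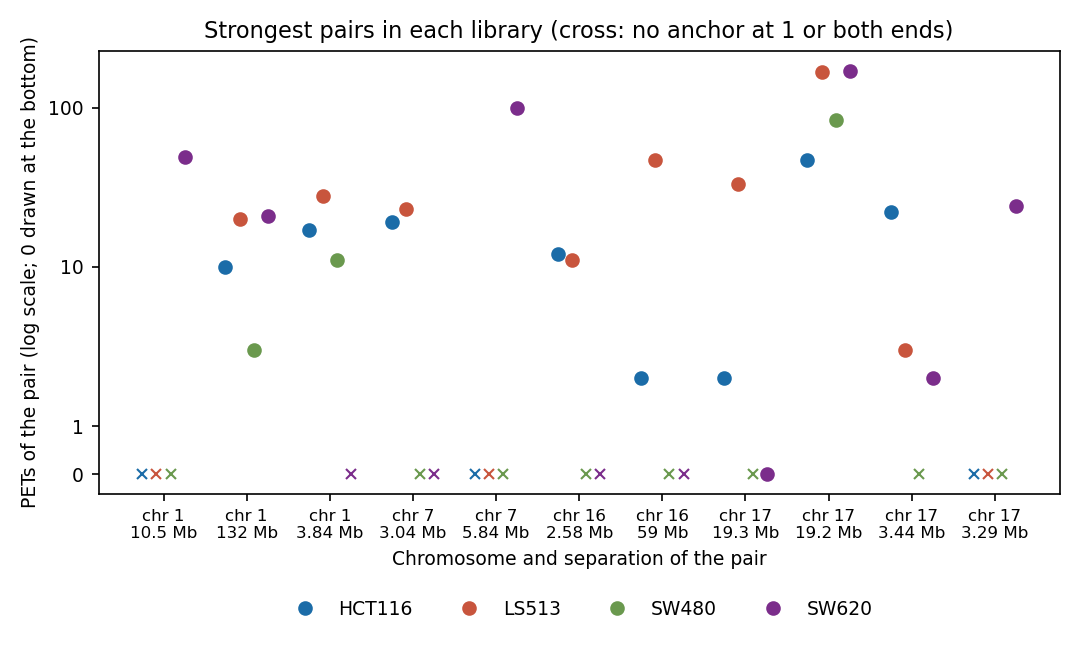
PETs (log axis, 0 at the bottom) in each library at the 11 loci that reached 10 PETs, labelled by chromosome and separation. Crosses mark libraries without an anchor at 1 or both ends, and the chromosome 17 pair at 19.2 Mb and the chromosome 1 pair at 132 Mb have PETs in all 4 libraries.

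Far pairs were rarely found again in another line. A pair counted as found when a far pair of the other library overlapped both its anchors by at least 1 bp. The most frequent case was HCT116 in LS513, where 792 of 11031 far pairs (7.18%, 6.71 to 7.68%) were found. In the other direction these made up 2.51% of the LS513 pairs. Of HCT116 pairs, 3.36% were found in SW620 and 0.263% in SW480, the shallowest library. Anchors at both ends existed for 71.7% of HCT116 pairs in SW620 and 15.1% in SW480, against 99.8% in LS513. Among pairs with such anchors, 4.69% were found in SW620 and 1.74% in SW480. For filtered loops the share found was 62.1% for HCT116 in LS513 and 39.3% for HCT116 in SW620. Pairs found in no other library, those without anchors elsewhere included, made up 89.7% of those of HCT116, 94.7% for SW620, 95.6% for LS513 and 93.6% for SW480. The chromosome 17 pair at 19.2 Mb and the chromosome 1 pair at 132 Mb were the only far pairs found in all 4 libraries.

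Although rare, shared far pairs exceeded the share of all possible anchor pairs, equally weighted and at the same distances, that held a PET in the second library. For HCT116 in LS513, 7.19% of pairs with anchors in both were found against 0.558% of possible pairs, a ratio of 12.9. Weighting possible pairs by anchor strength raised the background to 2.52% and lowered the ratio to 2.86. Over the 12 ordered couples of libraries the ratio ran from 2.97 to 12.9 without weights and from 1.12 to 3.93 with them. With weights, every couple that included HCT116 had a ratio of 2.46 or more, and the couples among LS513, SW480 and SW620 had ratios of 1.12 to 1.36. No interval is given for these ratios, and the lowest, SW480 in LS513, rested on 34 shared pairs. Shared pairs were also nearer, with a median of 7.96 Mb for HCT116 pairs found in 1 other library and 14.5 Mb for those found in none.

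The couple from the same patient did not stand out. Of SW480 far pairs, 2.37% (1.603 to 3.36%) were found in SW620, 2.29% (1.54 to 3.27%) in HCT116 and 2.68% (1.87 to 3.73%) in LS513, and these intervals overlap. SW620 had anchors at both ends of 69.9% of the SW480 pairs, HCT116 of 50.04% and LS513 of 49.96%. Among the pairs with such anchors, 3.39% were found in SW620, 4.57% in HCT116 and 5.37% in LS513. These libraries also differ in depth. Among filtered loops of SW480, 46.9% were found in SW620, 35.7% in LS513 and 29.3% in HCT116. Pairs with 2 or more PETs were found more often. For HCT116 in LS513 it was 18.8% (12.7 to 26.1%) for such pairs and 7.03% for single-PET pairs, and for SW620 in LS513 it was 13.6% (9.96 to 18.02%) and 3.21%.

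**Figure D4:**
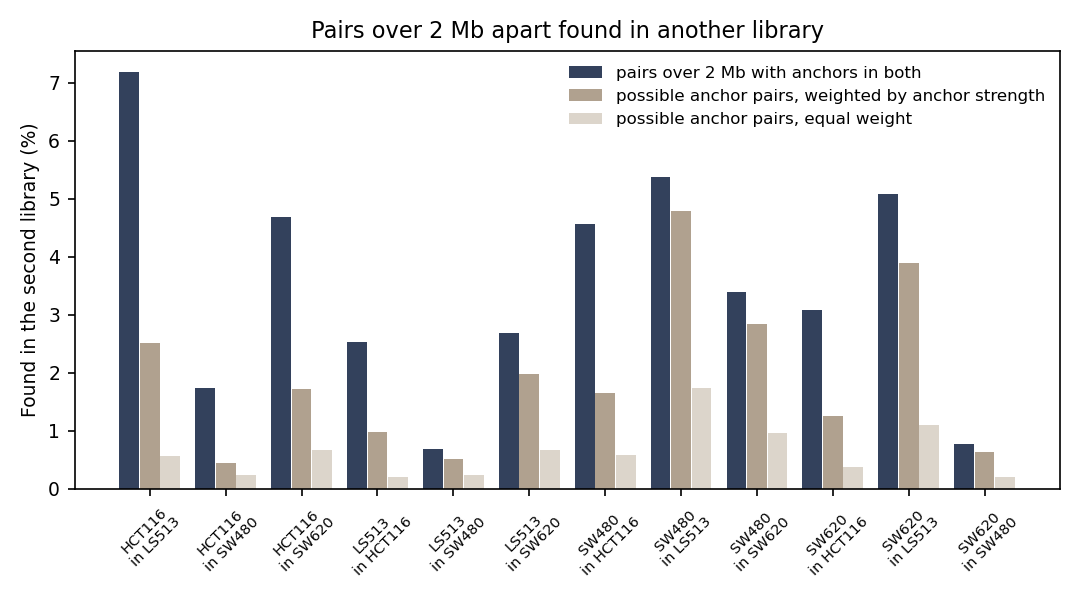
Percent of far pairs with anchors in both libraries that were found in the second library, for the 12 ordered couples, beside the same percent for all possible anchor pairs at the same distances with and without weighting by anchor strength. HCT116 in LS513 is highest at 7.19%, and the weighted background comes close to the observed share for SW480 in LS513 (ratio 1.12).

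To look for groups of pairs between the same distant regions, as a rearrangement would give, each chromosome was divided into tiles of 1 Mb by 1 Mb. A tile was called when it held at least 5 PETs and the lower exact 95% bound of observed over expected PETs was above 2. The expectation used distance and anchor strength. HCT116 had 20 called tiles, 0.0154% of 129518, LS513 101 (0.0767% of 131632), SW480 2 (0.00225% of 88757) and SW620 43 (0.0337% of 127738). With equal weights for all possible pairs the counts were 34, 148, 2 and 63, and 16, 46, 2 and 26 tiles were called by both. Tiles holding the strong pairs named above stood highest: by lower bound they took the first 4 places in HCT116, the first 5 in LS513, both in SW480 and the first 3 in SW620. The chromosome 17 tile from 43 to 44 and 62 to 63 Mb exceeded expectation 78.3-fold in HCT116, 190-fold in SW620, 180-fold in LS513 and 1056-fold in SW480. The fifth of HCT116 joined 28 to 29 with 62 to 63 Mb of chromosome 17 by 6 PETs from 2 pairs (103-fold, 37.7 to 223), and the other libraries had 0 PETs there. Of these PETs, 5 came from 1 pair that ended on chr17:62656458-62660032. That anchor is also an end of the HCT116 pair with 22 PETs, so this tile too rested largely on 1 anchor. In SW620 the fourth, 44 to 45 with 62 to 63 Mb, touched the strongest chromosome 17 tile and held 11 PETs from 3 pairs. Of these pairs, 2 held 5 PETs each and ended on chr17:62914248-62918581. That is the farther anchor of the strongest pair, with 3 PETs with itself, so the tile rested largely on 1 anchor.

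Without pairs that overlapped any pair of 3 or more PETs, 11 tiles were still called in HCT116, 36 in SW620, 88 in LS513 and 0 in SW480. The equal-weight calls from all far pairs included only 7, 18, 33 and 0 of these in the same order, so most of the LS513 tiles rested on the strength weights. In HCT116 the highest was on chromosome 2, between 10 to 11 and 20 to 21 Mb, with 6 PETs from 6 pairs against 0.519 expected (11.6-fold, 4.25 to 25.2). With equal weights over all far pairs that tile stood at 7.5-fold. A chromosome 6 tile, 26 to 27 with 28 to 29 Mb, held 12 PETs from 11 pairs in HCT116, 11 PETs in LS513 and 5 in SW620. In LS513, tiles of 5 PETs joined 39 to 40 with 45 to 46 Mb of chromosome 14 (59.7-fold, 19.4 to 139) and 42 to 43 with 135 to 136 Mb of chromosome 6 (44.8-fold, 14.5 to 105). Equal weights over all far pairs gave 27.1-fold for the former and 68.6-fold for the latter. The chromosome 6 tile, 93 Mb apart, had 4 different pairs in LS513 and 0 PETs in the other libraries.

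In SW620 the highest such tile joined 96 to 97 with 98 to 99 Mb of chromosome 12 by 5 PETs (73.05-fold, 23.7 to 171). Equal weights over all far pairs gave 19.1-fold for this tile. It had 5 PETs in LS513 and 3 in HCT116 as well. A chromosome 5 tile, 40 to 41 with 43 to 44 Mb, held 8 PETs in SW620, 10 in LS513 and 3 in HCT116. Of the tiles called without such pairs, 7 of 11 in HCT116, 29 of 36 in SW620 and 57 of 88 in LS513 were under 8 Mb apart. Among all tiles tested the share under 8 Mb was 7.83% in HCT116, 7.80% in SW620 and 7.79% in LS513, and contact was also highest at near distances. At 5 PETs a tile rests on few molecules, and its fold depends on the expectation chosen. The strength expectation was scaled over all chromosomes together. In LS513, observed over expected far PETs of whole chromosomes ran from 0.566 on chromosome 19 to 5.34 on chromosome X. The rule was thus easier to pass on some chromosomes than on others.

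Tiles were also compared between lines per 1000000 far PETs, calling a tile higher in a line when it held at least 5 PETs and the exact interval of its ratio to the next highest library was above 1. This called 9 tiles in HCT116 (0.0336% of 26785), 18 in SW620 (0.0672%), 2 in LS513 (0.00747%) and 2 in SW480 (0.00747%). SW480 held 0 PETs in every tile called in the other lines, and 0 of its 1378 far PETs allows up to 2177 per 1000000. Only the 2 SW620 tiles with the most PETs, at 5543 and 2691 per 1000000, lay above that limit. The rest were not shown to exceed SW480. In SW620, 2 tiles rested on strong pairs and the other 16 on several pairs, and 5 lay on chromosome 16 between 66 and 82 Mb. A tile joining 67 to 68 and 70 to 71 Mb there held 18 PETs from 17 pairs in SW620, 8 in LS513 and 1 in HCT116 (3.96-fold over LS513, 1.64 to 10.5). On chromosome 12, 22 to 23 Mb met 27 to 28 Mb with 12 PETs from 9 pairs in SW620, 2 in LS513 and 1 in HCT116. On chromosome 11, 65 to 66 Mb met 69 to 70 Mb with 15 PETs from 15 pairs in SW620, 6 in LS513 and 1 in HCT116. SW620 and the other lines have different anchors, and the number of possible anchor pairs in these tiles was not part of this ratio: the chromosome 12 tile had 80 in SW620 and 221 in LS513, the chromosome 16 tile 900 and 629.

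At the anchors that HCT116 and LS513 share, the same comparison called 27 tiles higher in HCT116 (0.13% of 20756) and 10 higher in LS513 (0.0482%). LS513 had 2.88 times the far PETs, so a tile of 5 PETs could be called in HCT116 and not in LS513. On chromosome 10, 112 to 113 with 114 to 115 Mb held 9 PETs in HCT116 and 3 in LS513 (8.65-fold, 2.16 to 49.7), and 105 to 106 with 114 to 115 Mb held 5 and 2 (7.21-fold, 1.18 to 75.7). On chromosome 17, 48 to 49 Mb was called with 3 partners: 55 to 56 Mb (10 and 10 PETs), 73 to 74 Mb (7 and 3) and 79 to 80 Mb (8 and 3). On chromosome 18, 3 to 4 with 9 to 10 Mb held 7 PETs in HCT116 and 2 in LS513 (10.1-fold, 1.92 to 99.6). LS513 was higher on chromosome 9, where 131 to 132 with 139 to 140 Mb held 29 PETs against 3 in HCT116 (3.35-fold, 1.04 to 17.2). Whether a rearrangement underlies any of these tiles was not tested.

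**Figure D5:**
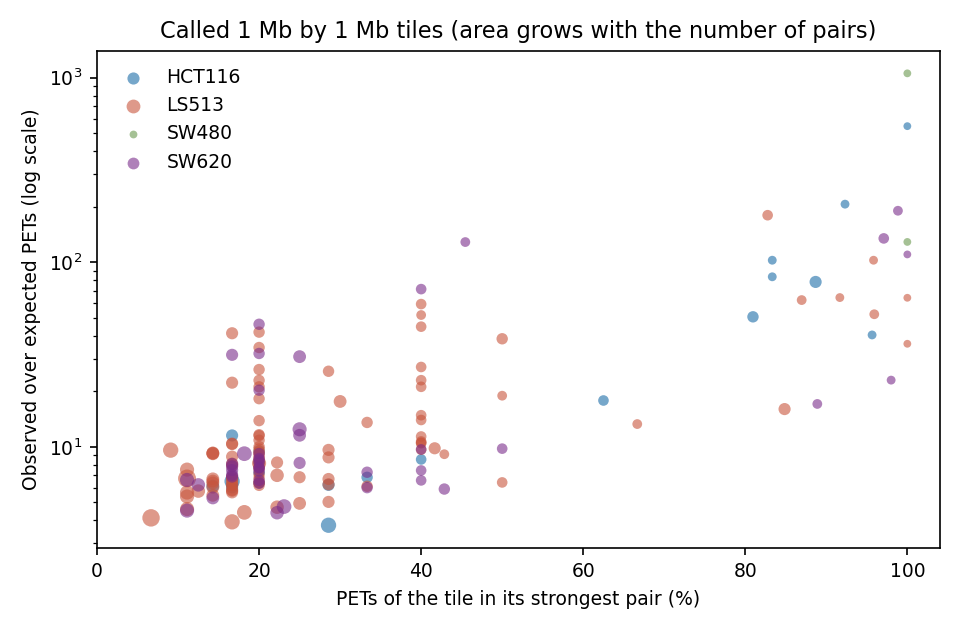
Observed over expected PETs (log axis) of the called tiles against the percent of each tile's PETs held by its strongest pair, by line, with point area growing with the number of pairs. The highest ratios, 1056 in SW480 among them, stand at the right where 1 pair holds most PETs, and most called tiles of LS513 and SW620 stand at the left.

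Far contact across the widest stretch of a chromosome without anchors was compared with contact on 1 side of it at the same distances. The stretch overlapped in all 4 libraries on 14 of the 22 chromosomes that had one over 2 Mb in every library. On chromosome 10 it lay between an anchor ending at 106100585 bp and one starting at 111680542 bp in HCT116 and LS513, and between 35876646 and 43847859 bp in SW480. The ratio is thus no measure of contact across the centromere, nor across the same places in each line. It was 1.17 in HCT116 (1.13 to 1.22), 1.08 in SW620 (1.04 to 1.11), 1.07 in LS513 (1.05 to 1.10) and 0.816 in SW480 (0.708 to 0.936). Weighted by anchor strength it was 0.883, 0.788, 0.847 and 0.682 in the same order, which turns the direction in HCT116, LS513 and SW620. The ratio also changed with distance. From 16 to 32 Mb it was 0.928 in HCT116 (0.846 to 1.02), 0.920 in SW620 (0.850 to 0.995), 0.771 in LS513 (0.729 to 0.815) and 0.693 in SW480 (0.497 to 0.940). In the bin that starts at 64 Mb it was 1.19 in HCT116 (1.09 to 1.28), 1.13 in SW620 (1.06 to 1.202), 1.25 in LS513 (1.19 to 1.31) and 0.818 in SW480 (0.650 to 1.02).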

How the data were processed

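H3K27ac HiChIP of the 4 lines was made with in situ MboI digestion, biotin fill-in and Tn5 libraries, per the labels' protocols. HiC-Pro and hg19 (GRCh37) are named in the submitters' processing notes. The definition of the anchors is not given in the sources used here. Deposited tables hold raw PET counts per anchor pair. Of these, 3 tables per library were used (within chromosomes, filtered loops, between chromosomes), and the 4 interaction tables with p-values were not used. Far pairs, distance bins, possible anchor pairs, overlaps and tiles were computed with Python 3.11.15, numpy 2.4.6, pandas 2.3.3 and scipy 1.17.1. Tile calls and slope were tried on counts simulated at the anchors of HCT116 and LS513. The raised tiles there were drawn only from those with larger expected counts, so calls at low expectation were not tried. Thinning was tried on random draws from the far pairs, and overlap only by matching a library with itself. Promoter copies were aligned with edlib 1.3.9.post1. Anchor strength is the sum of an anchor's PETs with itself and in filtered loops. Expected PETs are the product of 2 strengths scaled to each distance bin's total. With 1 library per line there is no test; intervals are exact (Clopper-Pearson, Poisson or conditional binomial). Counts of 0 allow up to 3. The pairs named are the 5 with the most PETs per library. Of the tiles, the 5 per library with the highest lower bound are covered; other tiles and the promoter couples were chosen after their values were seen. Members and rules were chosen with earlier results of these data known. Pairs on all chromosomes were kept.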

Additional observations from a re-analysis of the deposited data

How the results depend on the processing

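No paired analysis was possible because each line has 1 library, and for the same reason no replicate could be left out. The far share of PETs, in percent, rose to 21.2 in HCT116, 22.3 in SW620, 29.7 in LS513 and 15.2 in SW480 when each pair counted once, and to 12.6 in HCT116, 11.2 in SW620, 13.3 in LS513 and 9.997 in SW480 without anchors of 20 kb or more. Without pairs of 10 or more PETs, an alternative added after seeing the data, it was 8.42 in SW480 and 10.6 in SW620. The decay slope was -0.668 in HCT116, -0.705 in SW620, -0.716 in LS513 and -0.677 in SW480 with strength weights, and stayed within its counting error when each pair counted once, without chromosome X and without pairs of 10 or more PETs. The percent of far pairs with 2 or more PETs became 0.473 in HCT116, 0.331 in LS513 and 0.439 in SW620 on thinning, and with a minimum of 3 PETs it was 0.154 in HCT116, 0.179 in SW620, 0.209 in LS513 and 0.316 in SW480. Called tiles numbered 11 in HCT116, 47 in LS513 and 22 in SW620 at 500 kb, 152 in LS513 and 66 in SW620 at 2 Mb, 34 in HCT116 with equal weights, and 11 in HCT116 and 0 in SW480 without pairs of 3 or more PETs in any line. Crossing of the widest stretch without anchors gave 0.883 in HCT116, 0.788 in SW620, 0.847 in LS513 and 0.682 in SW480 with strength weights; without the longest distance bin, also added later, it was 1.05 in HCT116 and 1.005 in LS513. For pairs with 2 or more PETs in the first library, the percent found was 18.8 for HCT116 pairs in LS513, 2.08 in SW480 and 9.03 in SW620, and for LS513 pairs 7.33 in HCT116, 0.667 in SW480 and 5.6 in SW620. For SW480 pairs it was 22.2 in both HCT116 and LS513 and 11.1 in SW620, and for SW620 pairs 6.64 in HCT116, 13.6 in LS513 and 1.33 in SW480. With the second library thinned to the far PETs of SW480, the expected percent found was 0.368 for HCT116 pairs in LS513 and 0.281 in SW620, and for LS513 pairs 0.329 in HCT116 and 0.165 in SW620. For SW480 pairs it became 0.457 in HCT116, 0.292 in LS513 and 0.322 in SW620, and for SW620 pairs 0.273 in HCT116 and 0.166 in LS513. Requiring an overlap of 0.5 of the shorter anchor moved none of the 12 shares beyond its interval. The distance between nearest edges moved neither the far share nor the share with 2 or more PETs beyond theirs. Restricting the crossing to chromosomes other than 13, 14, 15, 21, 22 and X, added later, kept all 4 ratios within their intervals. The strength weights for the overlap background were also added later. The causes were not tested.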

Other observations

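Far contacts were spread unevenly over chromosomes. At the anchors that HCT116 and LS513 share, chromosome 13 held 1.21% of the far PETs of HCT116 and 2.65% of those of LS513, so the ratio was 2.20 (1.83 to 2.65). Its ratio for filtered loops was 2.19. Chromosome 9 gave 1.42 for far PETs and 1.37 for filtered loops. Chromosome 18 gave 0.602 (0.476 to 0.765) for far PETs and 0.850 for filtered loops. The number of copies of each chromosome was not measured here.

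Across anchors, Spearman's rho between far PETs and anchor strength was 0.480 in HCT116 (21941 anchors), 0.573 in SW620 (24556), 0.655 in LS513 (22154) and 0.290 in SW480 (9350). Anchors of 1 library share its depth and are not independent. The anchor with the most far partners was chr19:51468071-51488579 in HCT116 (26 partners), chr1:156708380-156724511 in LS513 (55, tied with chr19:39886857-39907855) and chr17:70565098-70640132 in SW620 (40). The HCT116 anchor ranked 160 by strength in its library and held 36 far PETs there, 28 in LS513 and 17 in SW620.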
